A study of Mus musculus with 23 samples.

Results

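The genes described here are 37 targets of the transcription factor NRF2 and antioxidant enzymes. They were taken by gene name from a fixed list out of 65535 genes in the deposited table. Glutathione transferases were left out, except for the microsomal Mgst1. The 37 genes were measured by 3′ end counting of polyA RNA from the livers of 23 mice. The knockout (KO) mice were of the line 129/Sv-Cyp2e1tm1Gonz/J, which carries a disrupted Cyp2e1 gene, and the wild type (WT) mice were of the line 129S1/SvImJ. The groups were 6 Male KO, 6 Male WT, 6 Female KO and 5 Female WT livers, and all mice were untreated as far as the labels say, on normal chow. Their age is uncertain: 1 label reads 16 weeks, whereas the protocol for keeping the mice reads 12 to 13 weeks. Each genotype was also a line of its own, so the disrupted gene and other differences between the lines cannot be told apart. CYP2E1 is a liver enzyme that oxidises ethanol, acetone and several drugs and that also releases reactive oxygen, so the comparison of KO with WT addresses whether antioxidant genes change when this source of oxidants is lost.

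NRF2, encoded by Nfe2l2, is held in the cytoplasm by KEAP1, which directs it to degradation. Oxidants and electrophiles modify cysteines of KEAP1, NRF2 then accumulates, enters the nucleus with a small MAF protein and binds antioxidant response elements in its target genes. In liver these targets include quinone reductase, glutathione synthesis, thioredoxin recycling and the supply of NADPH, on which peroxidases and reductases depend. NRF2 is controlled mainly as a protein, so the level of its own mRNA is not a measure of its activity.

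The core of the antioxidant response element was searched for as the letters TGACNNNGC on both strands, in RefSeq promoter windows of the build GRCm38.p6, which reach from 250 bases before to 50 bases after a start. Of the 37 genes, 33 had a window there, with 44 windows in all. The letters were in 10 of the 33 genes (30.3%), against 14.0% of 27025 gene symbols, and in 12 of 44 windows (27.3%), against 12.4% of 32851 windows. The 10 genes were Nfe2l2, Srxn1, Gclm, Prdx1, Pgd, Mgst1, Ggt1, Txnrd1, Sod1 and G6pdx. The windows below are those of tested genes in which the match lies before the start; each reads 5′ to 3′ along the gene, and capitals mark the match.
Nfe2l2 at chr2:75704885-75704913: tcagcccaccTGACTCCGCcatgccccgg
Gclm at chr3:122245413-122245441: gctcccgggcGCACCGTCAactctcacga
Prdx1 at chr4:116685456-116685484: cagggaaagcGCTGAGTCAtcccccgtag
Mgst1 at chr6:138140461-138140489: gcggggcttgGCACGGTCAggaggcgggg
Txnrd1 at chr10:82859104-82859132: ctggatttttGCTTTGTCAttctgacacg
Sod1 at chr16:90220696-90220724: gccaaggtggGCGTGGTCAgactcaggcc
G6pdx at chrX:74428919-74428947: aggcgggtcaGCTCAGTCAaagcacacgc
The Prdx1 match also holds the AP-1 letters TGACTCA on its other strand, and the other 6 do not. Nfe2l2 and G6pdx lie on the minus strand of the chromosome and the other 5 genes on the plus strand.

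Longer stretches of 250 bases before the start are shown for Nqo1 and Cbr1, which were called between the sexes in both genotypes, and for Mgst1, the only gene called between the sexes that holds the match. Prdx5 and Cat, called in 1 genotype each, also have no match before the start and are not printed. The stretch of Mgst1 holds the match printed above, again in capitals, and those of Nqo1 and Cbr1 hold no TGACNNNGC.
Nqo1 at chr8:107403206-107403455, minus strand: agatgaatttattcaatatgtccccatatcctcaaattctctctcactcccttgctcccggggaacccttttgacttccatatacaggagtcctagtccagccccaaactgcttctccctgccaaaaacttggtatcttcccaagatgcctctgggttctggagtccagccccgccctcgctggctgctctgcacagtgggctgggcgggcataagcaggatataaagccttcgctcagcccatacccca
Cbr1 at chr16:93607587-93607836, plus strand: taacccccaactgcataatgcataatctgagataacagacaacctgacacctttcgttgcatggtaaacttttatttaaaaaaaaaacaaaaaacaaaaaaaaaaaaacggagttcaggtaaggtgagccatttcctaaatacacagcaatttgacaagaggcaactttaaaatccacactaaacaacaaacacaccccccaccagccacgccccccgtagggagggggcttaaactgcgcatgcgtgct
Mgst1 at chr6:138140277-138140526, plus strand: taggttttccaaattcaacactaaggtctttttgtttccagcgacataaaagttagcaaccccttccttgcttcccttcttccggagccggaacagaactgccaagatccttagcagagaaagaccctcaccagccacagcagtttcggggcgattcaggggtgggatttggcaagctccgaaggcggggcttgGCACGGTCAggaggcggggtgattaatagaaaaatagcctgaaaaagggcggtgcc
A match of letters is a description of these windows, and the absence of one says nothing of other stretches of the gene.

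Library totals ran between 1538889 counts (Male KO 3) and 9874733 counts (Male WT 3). Cyp2e1 averaged 32.4 ± 13.1 CPM in Male KO and 476 ± 54.0 CPM in Male WT livers, and 26.3 ± 7.29 CPM in Female KO and 398 ± 63.4 CPM in Female WT livers (SD), so each library stood on the side its genotype label gives. Hepatocyte markers such as Alb and Apoa1 were counted in all 23 libraries. In bulk liver, fewer cells of a type and less RNA per cell cannot be told apart. The summed CPM of 13 Kupffer cell and macrophage markers was 168 to 491 in Male KO and 141 to 219 in Male WT livers, and 111 to 445 in Female KO and 196 to 313 in Female WT livers. That of 12 sinusoidal endothelial markers was 175 to 350 in Male KO and 241 to 300 in Male WT livers, and 99.0 to 367 in Female KO and 325 to 379 in Female WT livers. The part of these cells in the results was not tested. The scaling factor that the TMM method gives a library lay under 0.9 in 4 libraries, all of them KO (Male KO 3, 5 and 6 and Female KO 4), and values without them are given beside several of the results.

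Of the 37 genes, 34 had enough counts to be tested together with 11370 genes in all. Cbr3, a carbonyl reductase, had 14 counts over the Male KO, 14 over the Male WT, 9.5 over the Female KO and 9.5 over the Female WT libraries. Slc7a11, the cystine transporter that supplies glutathione synthesis, had 3, 8, 5 and 5 counts in the same order of groups. Ggt1, which breaks down glutathione outside the cell, had 1 count in Male KO, 0 in Male WT, 6 in Female KO and 2 in Female WT libraries. No difference between groups can be read for these 3 genes at this depth. Together the 37 genes made up 1.89% of the counts of a Male KO library, 1.92% of Male WT, 1.83% of Female KO and 1.90% of Female WT on average, with single libraries between 1.54% and 2.13%.

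Loss of Cyp2e1 was accompanied by no called change in any of the 34 genes, in males, in females or over both sexes. A gene is called here when its Benjamini-Hochberg adjusted p over all genes in edgeR's quasi-likelihood test is under 0.05. In males 0 of 34 were called, against 0.132% of all genes, and in females 0 of 34, against 0.193%. With the sexes averaged, 0 of 34 were called, against 0.431% of all genes. DESeq2 and limma-voom also called 0 in each. The median log2 fold change of KO over WT was 0.01 in males and -0.01 in females, where the median of all genes tested was 0.04 and 0.01. Without the 4 libraries of low scaling factor the median of the 34 genes was -0.10 in males and -0.11 in females. The median of all genes tested was then 0.02 in males and 2.4e-05 in females. Of the Male KO libraries that fit holds only Male KO 1, 2 and 4. The precision of the estimates from all 23 libraries sets bounds on the change: the 95% interval lay within a 2-fold change either way for 32 of 34 genes in males, 33 of 34 in females and 34 of 34 with the sexes averaged. It lay within a 1.5-fold change for 23, 28 and 30 of them in the same order. The genes whose interval reached a 2-fold change were G6pdx and Gpx4 in males and G6pdx in females. In simulated data made from these libraries, the test recovered 72% of 2-fold changes in males, 74.5% in females and 92% with the sexes averaged. Of 1.5-fold changes it recovered 10.5%, 21% and 57% in the same order. The simulation gave each gene the same spread in all libraries, had no differences in scaling factor and changed 200 genes at once. These shares may therefore overstate what the test recovers in the real libraries.

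**Figure D1:**
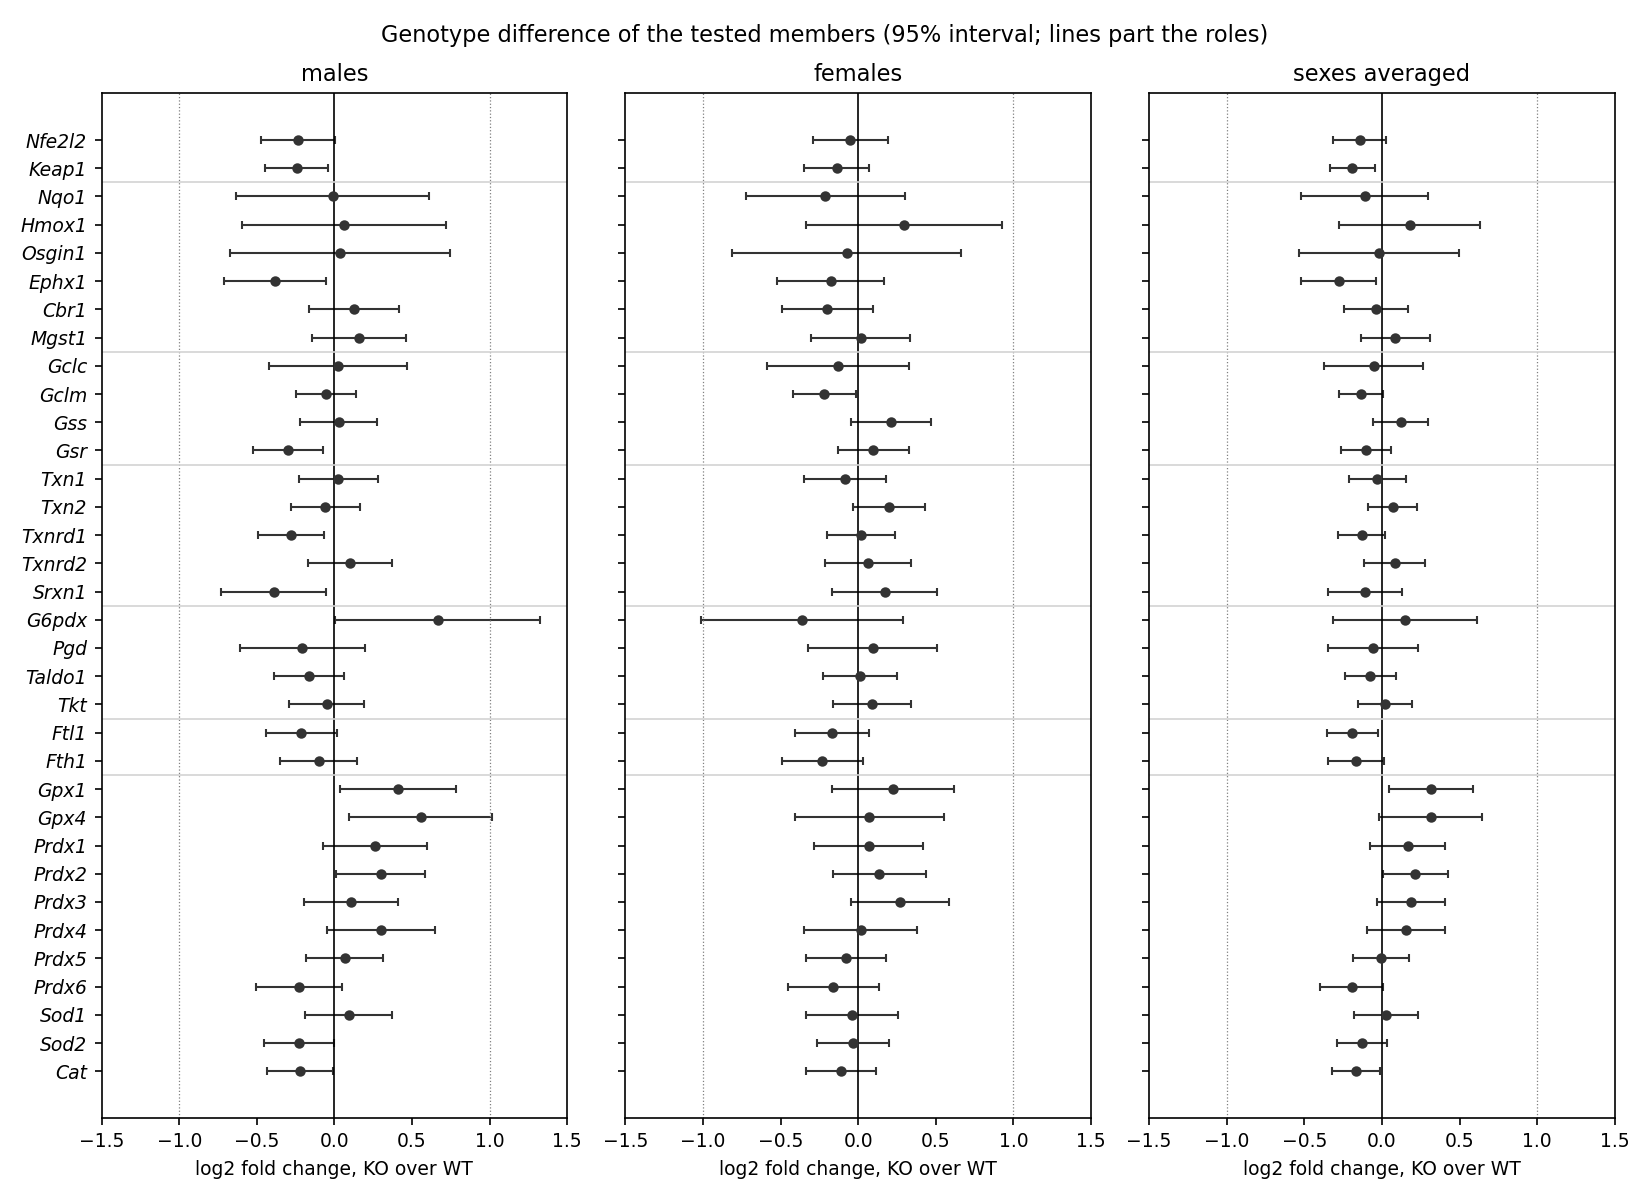
Log2 fold change of KO over WT (x axis) for each of the 34 tested genes (rows, grouped by role) in males, in females and with the sexes averaged; points are estimates and bars their 95% intervals, with dotted lines at a 2-fold change. Most intervals include 0, none of the 34 genes is called, and the widest bars in each panel are those of Osgin1, followed by G6pdx.

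Without adjustment, 11 of the 34 genes had a p under 0.05 in males, against 13.1% of all genes, and 1 in females, against 8.84%. With the sexes averaged there were 6, against 15.6% of all genes: Keap1, Ephx1, Ftl1 and Cat with a negative fold change and Gpx1 and Prdx2 with a positive one. The 11 in males were 7 with a negative fold change (Keap1, Ephx1, Gsr, Txnrd1, Srxn1, Sod2 and Cat), against 5.2% of all genes, and 4 with a positive one (G6pdx, Gpx1, Gpx4 and Prdx2), against 7.92%. Leaving out 1 library moved the count of 11 to between 4 and 12. It was 4 without Male KO 3, 4 without Male KO 6, 5 without Male WT 3 and 6 without Male WT 5. It was 7 without Male WT 1, 7 without Male WT 4, and 9 to 12 without any other library. DESeq2 gave a count of 12, limma-voom with sample weights 12 and limma-voom without weights 8. The count in males was also 4 without the 4 libraries of low scaling factor. The gene in females was Gclm, and leaving out 1 library gave between 0 and 3 genes, with 0 without Female WT 1, Female WT 3 or Female KO 6. Without the 4 libraries of low scaling factor the count in females rose to 5, and limma-voom with sample weights also gave 5. The shares of all genes at an unadjusted p under 0.05 under these alternatives are not given here. The sex by genotype term, which tests whether the genotype difference is unlike in males and females, called 0 of 34 genes and 0% of all genes. At an unadjusted p under 0.05 it had 3 of 34 genes, against 5.66% of all genes: Gsr (-0.40), Srxn1 (-0.56) and G6pdx (1.03), on the log2 scale. DESeq2 and limma-voom called none for this term either.

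Neither regulator was called by genotype in males, in females or with the sexes averaged. Nfe2l2, on chromosome 2, had 21.3 to 33.7 CPM (median 27.5) in Male KO and 23.6 to 40.7 CPM (median 34.2) in Male WT livers. It had 27.7 to 46.3 CPM (median 37.7) in Female KO livers, against 45.2, 41.8, 41.8, 34.5 and 36.1 CPM in the Female WT livers. The ranges overlapped in both sexes, and KO over WT on the log2 scale was -0.24 (SE 0.12, adjusted p = 0.385) in males and -0.05 (SE 0.12, adjusted p = 0.951) in females. Keap1, on chromosome 9, had 41.3 to 77.3 CPM (median 56.0) in Male KO and 66.4 to 78.6 CPM (median 70.0) in Male WT livers. In females it had 63.6 to 94.0 CPM (median 76.4) in KO livers, against 86.0, 89.2, 86.0, 95 and 76.5 CPM in WT livers. Libraries Male KO 3, 4, 5 and 6 lay below every Male WT library, while Male KO 1 and 2 lay among or near them. Of those 4, all but Male KO 4 are libraries of low scaling factor. Over both sexes the log2 fold change of Keap1 was -0.19 (SE 0.07, adjusted p = 0.195), and -0.12 (SE 0.07, adjusted p = 0.575) without the libraries of low scaling factor. In males it was -0.24 (SE 0.10, adjusted p = 0.314), and -0.10 (SE 0.10, adjusted p = 0.930) without them.

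Among the detoxifying and cytoprotective targets, 0 of 6 tested were called by genotype. Ephx1, the microsomal epoxide hydrolase, had 153 to 314 CPM (median 212) in Male KO and 269 to 327 CPM (median 300) in Male WT livers. In females it had 154 to 253 CPM (median 192) in KO livers, against 256, 243, 244, 214 and 175 CPM in WT livers. In males all KO libraries but Male KO 5 lay below every WT library. In log2 terms KO over WT was -0.38 (SE 0.16, adjusted p = 0.333) in males, -0.18 (SE 0.17, adjusted p = 0.839) in females and -0.28 (SE 0.12, adjusted p = 0.248) with the sexes averaged. Ephx1 was called without the 4 libraries of low scaling factor, at -0.39 (SE 0.08, adjusted p = 0.036) with the sexes averaged. Hmox1, the heme oxygenase that is often read as a sign of oxidative stress, averaged 4.51 ± 1.78 CPM in Male KO and 4.48 ± 1.34 CPM in Male WT livers, and 6.68 ± 3.15 CPM in Female KO and 5.45 ± 1.82 CPM in Female WT livers. Osgin1, an oxidative stress induced growth inhibitor, spread widely within each group, between 56.9 and 263 CPM in Female KO livers for example.

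In glutathione synthesis and turnover, 0 of 4 tested genes were called by genotype. Gsr, the reductase that returns oxidised glutathione to its reduced form, had 26.8 to 35.9 CPM (median 30.9) in Male KO and 35.8 to 47.6 CPM (median 39.2) in Male WT livers. The 2 ranges met only at Male KO 1 and Male WT 4. In females it had 32.6 to 44.8 CPM (median 40.4) in KO livers, against 38.4, 43.1, 41.1, 36.3 and 32.3 CPM in WT livers. Gsr had a log2 fold change of -0.30 (SE 0.11, adjusted p = 0.293) in males and 0.10 (SE 0.11, adjusted p = 0.866) in females. Gclm, the modifier subunit of the enzyme that limits glutathione synthesis, averaged 192 ± 18.9 CPM in Male KO and 211 ± 17.5 CPM in Male WT livers, and 200 ± 20.3 CPM in Female KO and 237 ± 38.1 CPM in Female WT livers. Gss, glutathione synthetase, averaged 40.2 ± 5.32 CPM in Male KO and 41.6 ± 2.48 CPM in Male WT livers, and 48.9 ± 0.980 CPM in Female KO and 43.5 ± 4.64 CPM in Female WT livers.

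Gclc, on chromosome 9, encodes the catalytic subunit of that limiting enzyme, and it varied within each group more than between genotypes. Its log2 fold change of KO over WT was 0.02 (SE 0.22) in males and -0.13 (SE 0.22) in females. The libraries numbered 1, 2 and 3 had 97.9, 93.1 and 71.0 CPM in Male KO livers, and those numbered 4, 5 and 6 had 38.1, 52.3 and 48.8 CPM. In Male WT livers the same libraries had 97.0, 86.1 and 76.7 CPM, then 51.9, 48.2 and 51.8 CPM. In Female KO livers they had 96.1, 112 and 105 CPM, then 62.7, 53.4 and 57.6 CPM, and in Female WT livers 120, 101 and 87.7 CPM, then 86.3 and 56.7 CPM. In each of the 4 groups the libraries numbered 1 to 3 thus lay above those numbered 4 and up. When the replicate number was entered as a term of the fit, that term was called for 1 of the 34 genes, Gclc (edgeR F test, adjusted p = 0.00219), against 1.24% of all genes, a test added after these values were seen. The labels do not say what the numbers stand for.

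**Figure D2:**
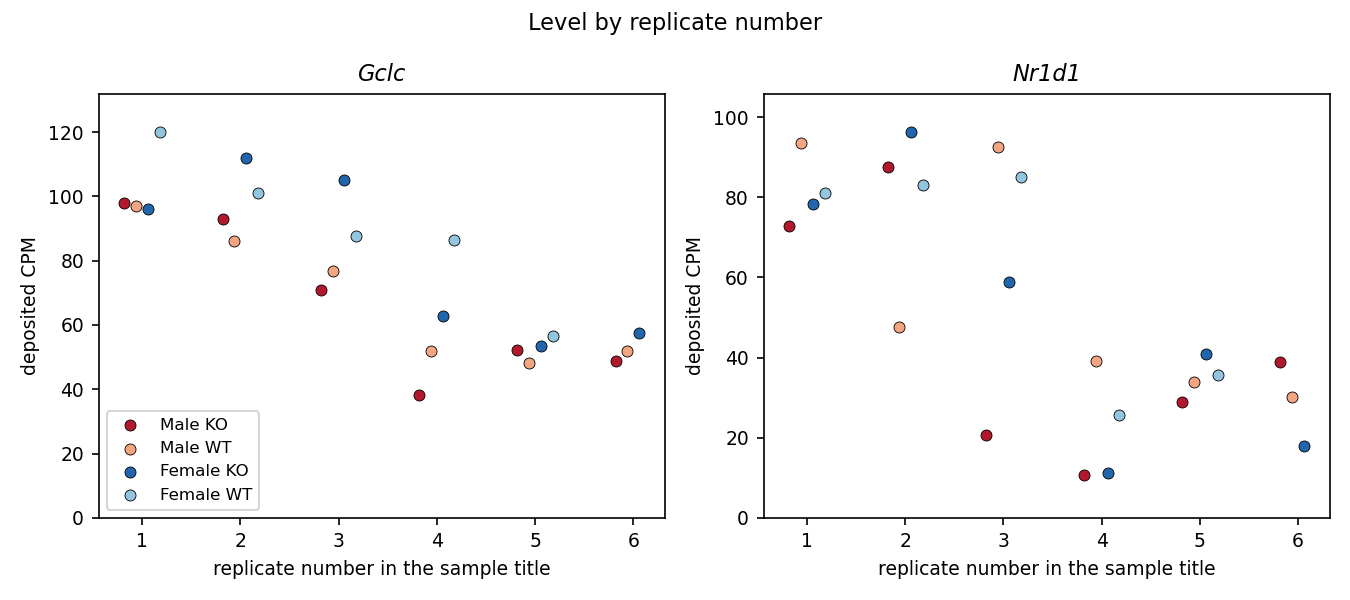
Deposited CPM (y axis) of Gclc and of the clock gene Nr1d1 against the replicate number in the sample title (x axis), 1 point per library, coloured by group. Gclc lies between 71.0 and 120 CPM in libraries 1 to 3 and between 38.1 and 86.3 CPM in libraries 4 to 6; Nr1d1 is also high in most of libraries 1 to 3, with 20.6 CPM in Male KO 3.

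In the thioredoxin system, 0 of 5 genes were called by genotype. Txnrd1, the cytosolic thioredoxin reductase, had 38.1 to 64.7 CPM (median 53.1) in Male KO and 61.3 to 78.6 CPM (median 66.4) in Male WT livers. In females it had 58.5 to 88.5 CPM (median 72.0) in KO livers, against 84.2, 82.1, 73.5, 74.8 and 54.6 CPM in WT livers. Male KO 3, 4, 5 and 6 lay below every Male WT library, as for Keap1. Txnrd1 had a log2 fold change of -0.28 (SE 0.10, adjusted p = 0.293) in males and 0.02 (SE 0.11) in females, and it was not called. Without the libraries of low scaling factor the male value was -0.17 (SE 0.11, adjusted p = 0.859). Srxn1, sulfiredoxin, which repairs overoxidised peroxiredoxins, averaged 8.39 ± 2.38 CPM in Male KO and 11.7 ± 0.706 CPM in Male WT livers, and 12.1 ± 2.41 CPM in Female KO and 11.1 ± 2.34 CPM in Female WT livers. Of the thioredoxins Txn1 and Txn2 and the mitochondrial reductase Txnrd2, none had a log2 fold change beyond 0.20 either way.

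Of the 4 genes that supply NADPH through the pentose phosphate pathway, 0 were called by genotype. G6pdx, which encodes its first enzyme and lies on chromosome X, had 2.41 to 9.03 CPM (median 4.26) in Male KO and 2.67 to 4.46 CPM (median 2.99) in Male WT livers. In females it had 0.922 to 7.63 CPM (median 3.70) in KO livers, against 6.87, 3.39, 6.25, 5.31 and 3.91 CPM in WT livers. The ranges overlapped in both sexes and rested on 120 and 109 counts over the Male KO and Male WT libraries. On the log2 scale KO over WT was 0.67 (SE 0.32, adjusted p = 0.376) in males and -0.36 (SE 0.32, adjusted p = 0.815) in females. Pgd, Taldo1 and Tkt, which act further along that pathway, had log2 fold changes between -0.21 and 0.10 in either sex.

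The ferritin subunits Ftl1 and Fth1, which store iron and so keep it from reacting with peroxides, were the genes whose libraries separated by genotype in 1 of the sexes. Ftl1, on chromosome 7, had 1070 to 1530 CPM (median 1400) in Male KO and 1560 to 1880 CPM (median 1660) in Male WT livers, with no overlap. In females Ftl1 had 1260 to 1800 CPM (median 1340) in KO livers, against 1550, 1480, 1970, 1710 and 1390 CPM in WT livers, and the ranges overlapped. Fth1, on chromosome 19, had 2040 to 3040 CPM (median 2920) in Female KO livers, against 3111, 3375, 3602, 3638 and 3171 CPM in the Female WT livers, with no overlap. In males Fth1 had 2130 to 3300 CPM (median 2810) in KO and 3020 to 3280 CPM (median 3130) in WT livers. Ftl1 was the only one of the 34 tested genes whose Male KO and Male WT libraries did not overlap, against 0.616% of all genes, and Fth1 the only one in females, against 1.07%. Neither was called: the log2 fold change with the sexes averaged was -0.19 (SE 0.08, adjusted p = 0.255) for Ftl1 and -0.17 (SE 0.09, adjusted p = 0.358) for Fth1. These separations are in the deposited CPM, while the test also applies the scaling factors, which were low in 3 of the 6 Male KO libraries.

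Among the 11 peroxidases, dismutases and catalase, 0 were called by genotype. Gpx1, the cytosolic glutathione peroxidase, averaged 4920 ± 1210 CPM in Male KO and 4000 ± 453 CPM in Male WT livers, and 4880 ± 859 CPM in Female KO and 4330 ± 441 CPM in Female WT livers. Its 4 highest values of the 23 were in the 4 libraries of low scaling factor: 6680 in Male KO 3, 6550 in Female KO 4, 6010 in Male KO 5 and 4990 in Male KO 6, against at most 4980 in the other 19. Gpx4, the glutathione peroxidase that reduces lipid hydroperoxides in membranes, had 208 to 620 CPM (median 338) in Male KO and 240 to 315 CPM (median 256) in Male WT livers. In females Gpx4 had 217 to 363 CPM (median 272) in KO livers, against 255, 304, 276, 281 and 310 CPM in WT livers. The highest Gpx4 value, 620 CPM, was again in Male KO 3, and the ranges overlapped in both sexes. Gpx4 in males had a log2 fold change of 0.56 (SE 0.22, adjusted p = 0.308), and 0.11 (SE 0.21, adjusted p = 0.968) without those 4 libraries. That of Gpx1 in males was 0.41 (SE 0.18, adjusted p = 0.353).

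**Figure D3:**
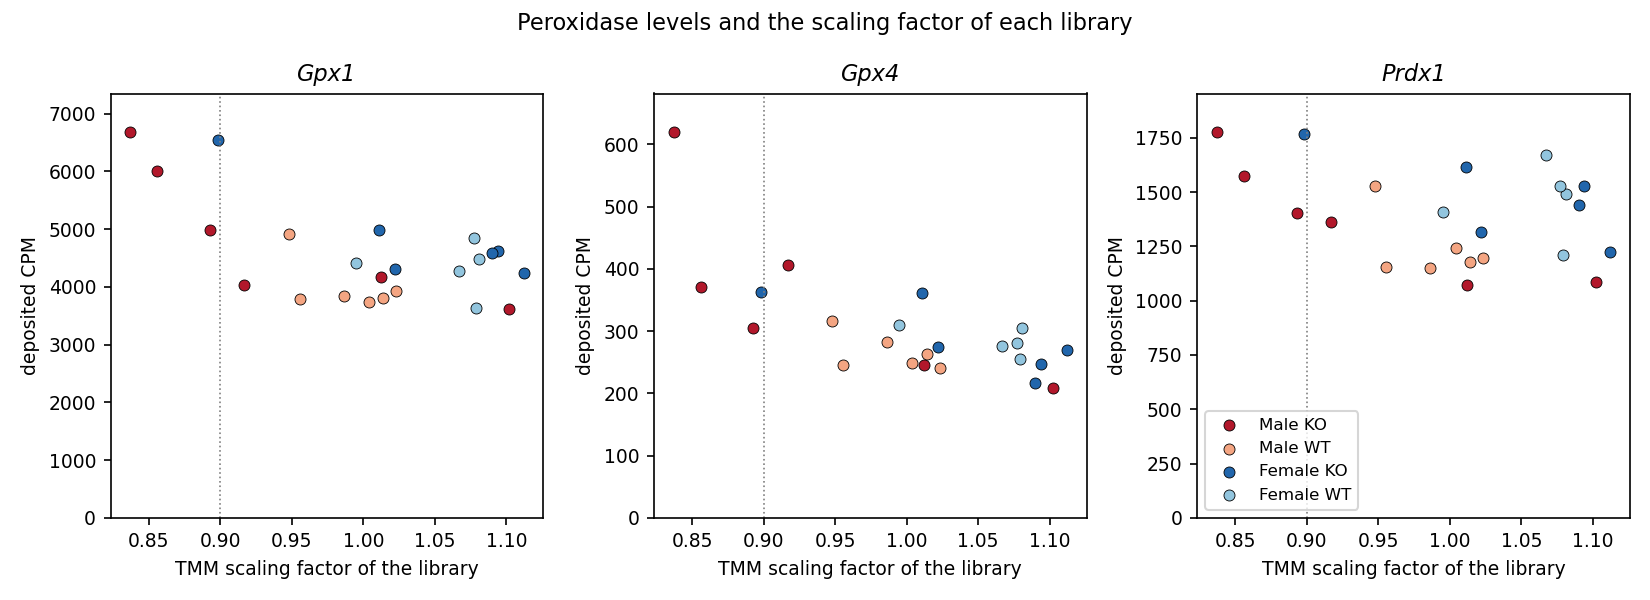
Deposited CPM (y axis) of Gpx1, Gpx4 and Prdx1 against the TMM scaling factor of the library (x axis), 1 point per library, coloured by group; the dotted line marks a factor of 0.9. The 4 libraries left of the line, all KO, hold the 4 highest Gpx1 values, between 4990 and 6680 CPM, and include the highest Gpx4 and Prdx1 values, 620 and 1780 CPM, in Male KO 3.

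Prdx4, the peroxiredoxin of the endoplasmic reticulum, also had its 4 highest values in those 4 libraries, between 174 and 203 CPM, against at most 172 CPM in the other 19. Tkt, by contrast, had its 4 lowest values there, between 59.8 and 75.4 CPM, against at least 77.9 CPM in the others. The part of the scaling factor in these values was not tested. Catalase, Cat, averaged 1940 ± 375 CPM in Male KO and 2380 ± 169 CPM in Male WT livers, and 1710 ± 251 CPM in Female KO and 1890 ± 226 CPM in Female WT livers. Sod2, the mitochondrial superoxide dismutase, averaged 32.0 ± 3.31 CPM in Male KO and 39.8 ± 2.73 CPM in Male WT livers, and 36.3 ± 3.03 CPM in Female KO and 38.0 ± 5.39 CPM in Female WT livers. Sod1, its cytosolic counterpart, averaged 1380 ± 146 CPM in Male KO and 1380 ± 61.8 CPM in Male WT livers, and 1360 ± 206 CPM in Female KO and 1450 ± 142 CPM in Female WT livers. The remaining peroxiredoxins Prdx1, Prdx2, Prdx3, Prdx5 and Prdx6 had log2 fold changes between -0.23 and 0.30 in either sex, and Prdx2 was the only one of them with an unadjusted p under 0.05, in males (0.30, adjusted p = 0.368).

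Males and females differed in a few of these genes within each genotype. Nqo1 and Cbr1 were lower in males in both genotypes, Mgst1 and Prdx5 were higher in males among KO livers, and Cat was higher in males among WT livers. In KO livers 4 of 34 genes were called, against 7.44% of all genes, and in WT livers 3 of 34, against 5.61%. Of these, 2 were higher in males in KO livers (background 3.67%) and 2 lower (3.77%), and in WT livers 1 was higher (2.36%) and 2 lower (3.25%). With so few genes these counts stand near those of all genes. The KO and WT contrasts compare separate libraries, but 1 fit of all 23 libraries gave both contrasts a shared spread. Their calls are therefore not independent. The 2 genes called in both were Nqo1 and Cbr1, with 5 genes called in either. In the count of libraries that did not overlap, Male KO and Female KO were apart in 3 of 34 genes, against 3.67% of all genes, and Male WT and Female WT in 6 of 34, against 7.72%.

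Nqo1, on chromosome 8, encodes the quinone reductase that is the usual readout of NRF2. It had 1.88 to 5.34 CPM (median 2.38) in Male KO livers, against 5.54 to 8.72 CPM (median 6.96) in Female KO livers. In WT livers it had 1.34 to 3.98 CPM (median 3.41) in males, against 10.1, 5.98, 11.1, 9.55 and 4.62 CPM in females. Every male library thus lay below every female library of its genotype, with Male KO 4, at 5.34 CPM, next to the lowest Female KO library. Counts were few, 68 over the Male KO and 103 over the Male WT libraries, 194 over the Female KO and 224 over the Female WT libraries. The log2 fold change of male over female was -1.19 (SE 0.28, adjusted p = 0.00822) in KO and -1.39 (SE 0.27, adjusted p = 9.11e-04) in WT livers, which is a ratio of 0.439 and 0.382. Nqo1 was called in both genotypes in each of the 23 fits that left out 1 library. Without the 4 libraries of low scaling factor it was -0.97 (SE 0.36, adjusted p = 0.154) in KO livers and not called there.

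Cbr1, on chromosome 16, encodes a carbonyl reductase that reduces quinones and other carbonyl compounds. It had 47.0 to 65.2 CPM (median 47.4) in Male KO livers, against 80.4 to 93.4 CPM (median 86.4) in Female KO livers. In WT livers it had 34.8 to 58.1 CPM (median 49.0) in males, against 90.5, 96.1, 118, 114 and 95.4 CPM in females. The male and female ranges did not overlap in either genotype. The log2 fold change of male over female was -0.64 (SE 0.14, adjusted p = 0.00355) in KO and -0.96 (SE 0.14, adjusted p = 2.96e-05) in WT livers, and it was called in each of the 23 fits that left out 1 library. The difference between these 2 values, the sex by genotype term, was 0.32 (SE 0.20, adjusted p = 0.934). The genotype difference of Cbr1 in males, 0.12 (SE 0.14) and not called, turned to -0.10 (SE 0.15) without the libraries of low scaling factor. Cbr1b is a near copy of Cbr1 that can share its reads, and adding its counts to those of Cbr1 left both calls in place.

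**Figure D4:**
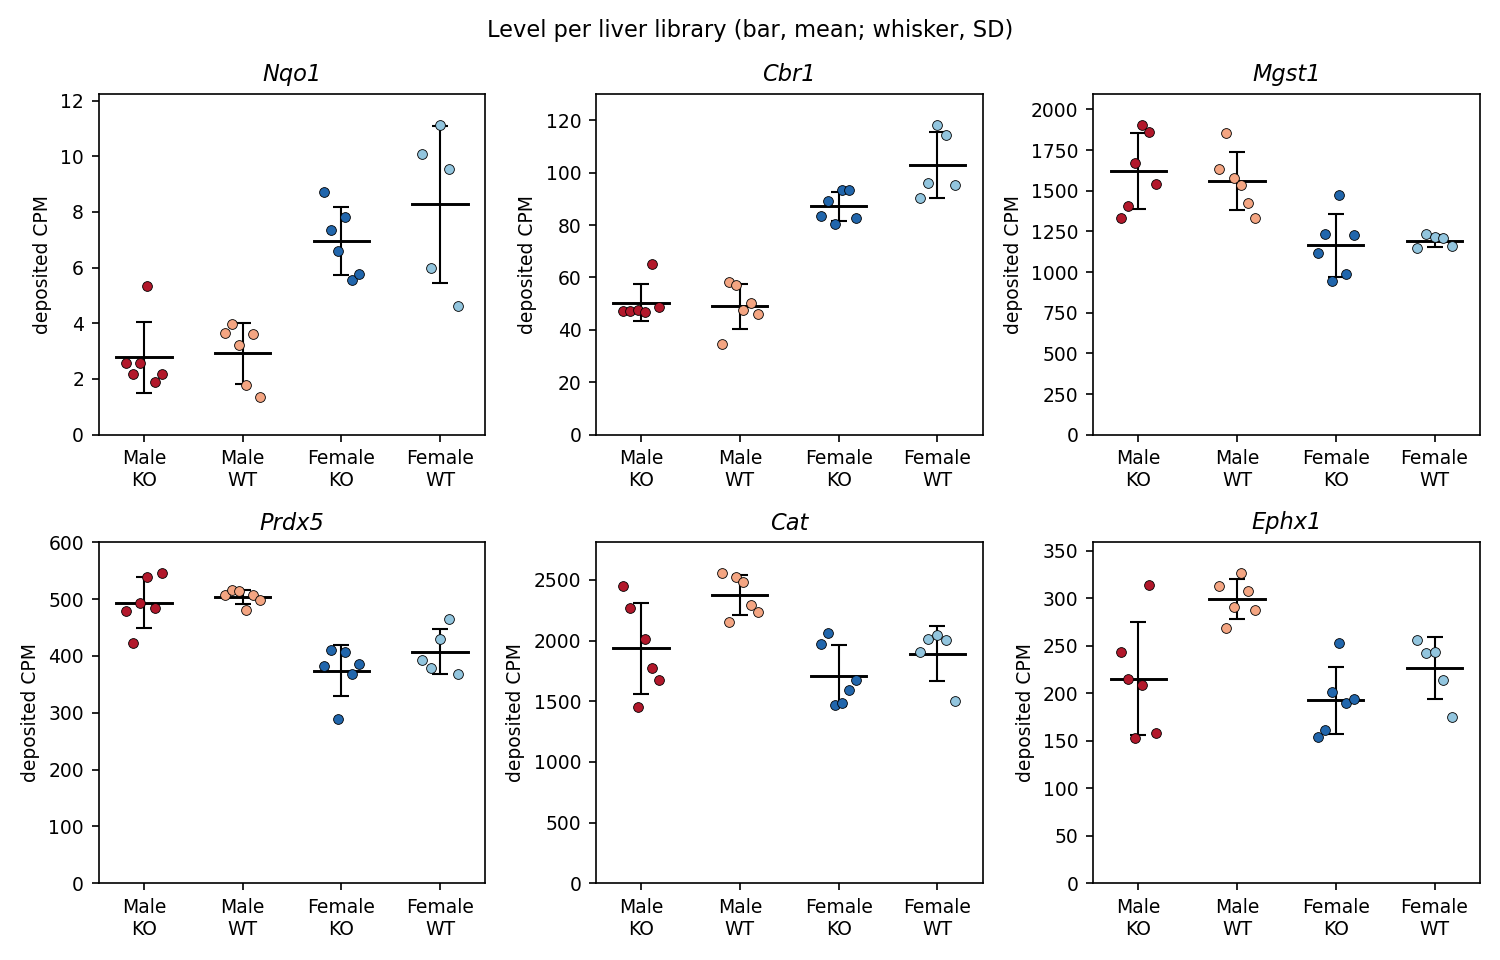
Deposited CPM (y axis) of Nqo1, Cbr1, Mgst1, Prdx5, Cat and Ephx1 in each liver library, 1 point per library, in the groups Male KO, Male WT, Female KO and Female WT; horizontal bars are means and whiskers SD. Nqo1 and Cbr1 are lower in both male groups than in the female group of the same genotype, and Prdx5 is higher in both male groups.

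Mgst1, on chromosome 6, encodes the microsomal glutathione transferase, which also reduces lipid hydroperoxides. It had 1330 to 1910 CPM (median 1610) in Male KO livers, against 942 to 1470 CPM (median 1170) in Female KO livers. In WT livers it had 1340 to 1850 CPM (median 1560) in males, against 1150, 1230, 1210, 1210 and 1160 CPM in females. The ranges overlapped in KO livers, through Female KO 4, and did not overlap in WT livers. Male over female gave a log2 fold change of 0.63 (SE 0.15, adjusted p = 0.00702) in KO and 0.49 (SE 0.16, adjusted p = 0.0677) in WT livers. The call in KO livers was lost, at an adjusted p of 0.0747, when only the libraries of the 2 groups compared entered the fit. Without the libraries of low scaling factor Mgst1 was also called in WT livers, at 0.50 (adjusted p = 0.0176), and its genotype difference in males, 0.16 and not called, turned to -0.02.

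Prdx5, on chromosome 19, is a peroxiredoxin of mitochondria, peroxisomes and cytosol. It had 422 to 546 CPM (median 488) in Male KO livers, against 288 to 410 CPM (median 385) in Female KO livers. In WT livers it had 480 to 516 CPM (median 507) in males, against 394, 379, 430, 465 and 369 CPM in females. The ranges did not overlap in either genotype, and Female KO 3, at 288 CPM, lay well below the other females. Prdx5 had a log2 fold change of 0.56 (SE 0.12, adjusted p = 0.00339) in KO and 0.41 (SE 0.13, adjusted p = 0.0583) in WT livers. With only the libraries of the 2 groups compared, the adjusted p in KO livers was 0.0544. Without the libraries of low scaling factor Prdx5 was also called in WT livers, at 0.42 (adjusted p = 0.0263), and its genotype difference in males, 0.07 and not called, turned to -0.09.

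Cat, on chromosome 2, had 1450 to 2450 CPM (median 1890) in Male KO livers, against 1470 to 2060 CPM (median 1630) in Female KO livers. In WT livers it had 2160 to 2560 CPM (median 2390) in males, against 1910, 2010, 2040, 2010 and 1500 CPM in females. The ranges overlapped in KO livers and not in WT livers. Cat had a log2 fold change of 0.32 (SE 0.10, adjusted p = 0.0592) in KO and 0.43 (SE 0.11, adjusted p = 0.0154) in WT livers. Without Female WT 5, the library at 1500 CPM, the adjusted p in WT livers was 0.0568, and with no filter on low counts it was 0.263. Without the libraries of low scaling factor Cat was also called in KO livers, at 0.44 (adjusted p = 0.0344). For all 3 of Mgst1, Prdx5 and Cat a call in 1 genotype alone does not show that the sex difference is unlike in the other, since none of them was called for the sex by genotype term.

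**Figure D5:**
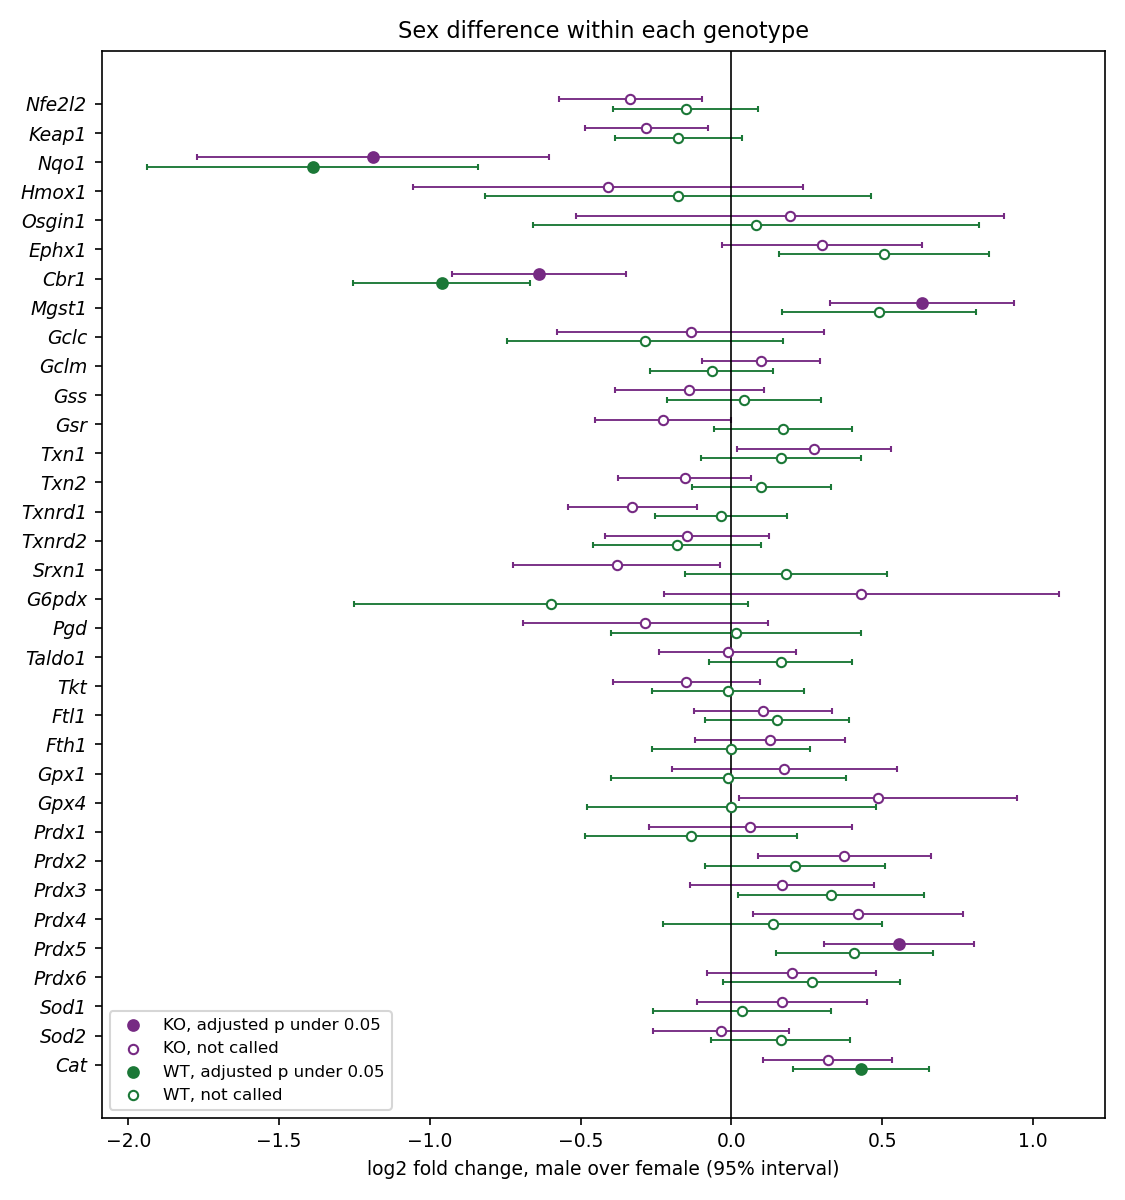
Log2 fold change of male over female (x axis) with its 95% interval for each of the 34 tested genes (rows), in KO livers and in WT livers; filled points have an adjusted p under 0.05. Nqo1 and Cbr1 lie furthest to the left in both genotypes, and 10 of the 11 peroxidases, dismutases and catalase lie right of 0 in KO livers and 8 of 11 in WT livers.

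By role, the peroxidases, dismutases and catalase had a median log2 fold change of male over female of 0.20 in KO and 0.16 in WT livers, where the median of all genes was 0.01 in KO and -0.02 in WT. The values were positive for 10 of 11 of them in KO and for 8 of 11 in WT livers. The share of all genes with a positive value is not given here. In each genotype 1 of the 11 was called, against 7.44% of all genes in KO and 5.61% in WT livers. Without the libraries of low scaling factor, the log2 fold change of Gpx4 in KO livers fell to 0.19, while that of Cat rose to 0.44. Ephx1 was above all female libraries in all Male WT libraries, with a log2 fold change of 0.51 (SE 0.17, adjusted p = 0.0847), called without the libraries of low scaling factor (0.52, adjusted p = 0.00202), and was 0.30 (SE 0.16, adjusted p = 0.258) in KO livers. Both regulators were negative in both genotypes: Nfe2l2 was -0.34 in KO and -0.15 in WT livers, and Keap1 was -0.28 in KO and -0.18 in WT livers, and neither was called. The thioredoxin system, glutathione synthesis and turnover, NADPH supply and iron storage had 0 called genes in edgeR in either genotype. Txnrd1 came nearest, at -0.33 (SE 0.10, adjusted p = 0.0521) in KO livers, and DESeq2 called it there.

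Other genes of the pathway were counted in lists of their own. Of 14 tested regulators of the pathway beside Nfe2l2 and Keap1, 0 were called by genotype in males, in females or over both sexes. Between the sexes 1 was called, where 7.44% of all genes were called in KO and 5.61% in WT livers. At an unadjusted p under 0.05 there were 3 in males, 1 in females and 3 over both sexes, against 13.1%, 8.84% and 15.6% of all genes. Bach1, a repressor that competes with NRF2, was among them and negative in all 3 comparisons. The gene called between the sexes was Dpp3, a peptidase that binds KEAP1, with 49.4 ± 4.46 CPM in Male WT and 40.2 ± 2.32 CPM in Female WT livers (log2 fold change 0.40, adjusted p = 0.0225). Of 21 other reported NRF2 targets, 0 were called in males, 0 in females and 1 with the sexes averaged, against 0.132%, 0.193% and 0.431% of all genes. This was Abcc3, a transporter that exports conjugates from hepatocytes, with 69.4 ± 21.3 CPM in Male KO and 107 ± 12.8 CPM in Male WT livers, and 99.2 ± 16.9 CPM in Female KO and 141 ± 21.1 CPM in Female WT livers (log2 fold change -0.50, adjusted p = 0.0277). At an unadjusted p under 0.05 there were 5 of the 21 in males, 7 in females and 8 over both sexes, all of them negative, against 5.2%, 4.29% and 6.73% of all genes in that direction. The median log2 fold change of these 21 targets was -0.08 in males, -0.12 in females and -0.20 over both sexes, where that of all genes was 0.04, 0.01 and 0.03.

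Between the sexes, 7 of these 21 targets were called in KO livers, 1 higher and 6 lower in males, and 6 in WT livers, all lower in males. Of all genes, 7.44% were called in KO and 5.61% in WT livers. The 6 lower in males were the same genes in both genotypes: Cyp2a5, Lbp, Abcc4, Htatip2, Ugt1a6a and Ces1g. Cyp2a5, a monooxygenase, averaged 12.4 ± 7.07 CPM in Male KO and 79.0 ± 33.8 CPM in Female KO livers (log2 fold change -2.53, adjusted p = 9.66e-06). In WT livers Cyp2a5 averaged 24.3 ± 7.78 CPM in males and 87.9 ± 27.1 CPM in females (log2 fold change -1.75, adjusted p = 7.58e-04). Abcc4, an efflux pump, averaged 1.16 ± 0.467 CPM in Male KO and 3.46 ± 1.04 CPM in Female KO livers, and 1.05 ± 0.244 CPM in Male WT and 5.11 ± 1.11 CPM in Female WT livers, with log2 fold changes of -1.54 and -2.17. Aox1, aldehyde oxidase, was the gene higher in males, with 4.81 ± 2.61 CPM in Male KO and 2.64 ± 0.763 CPM in Female KO livers (log2 fold change 1.09, adjusted p = 0.00475).

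Of 23 further thiol and hydroperoxide redox genes, 0 were called in males, where 7 had an unadjusted p under 0.05, against 13.1% of all genes. In females 1 was called, against 0.193% of all genes. This was Txnip, the inhibitor of thioredoxin, which fell in Female KO livers to 7.67 ± 2.34 CPM, against 17.4 ± 5.88 CPM in Female WT livers (log2 fold change -1.14, adjusted p = 0.00421). Txnip averaged 9.68 ± 2.05 CPM in Male KO and 9.68 ± 1.72 CPM in Male WT livers, and in WT livers it was lower in males than in females (-0.73, adjusted p = 0.0179). Of 19 genes of cysteine supply and other glutathione handling, 0 were called by genotype in males, in females or over both sexes. An unadjusted p under 0.05 was found for 2, 1 and 2 of them, against 13.1%, 8.84% and 15.6% of all genes. Between the sexes, Lap3 was called in both genotypes, Mat1a in KO and Slc3a2 in WT livers. Of all genes, 7.44% were called between the sexes in KO and 5.61% in WT livers. Among 16 oxidant sources only Cyp2e1 itself was called by genotype, in the 3 comparisons of KO with WT. At an unadjusted p under 0.05 there were 6 of 16 in males, 1 in females and 6 over both sexes, against 13.1%, 8.84% and 15.6% of all genes. Those in males included Cyba, Cybb and Ncf1, subunits of the phagocyte NADPH oxidase, all positive, and Male KO livers had the higher sums of Kupffer cell and macrophage markers given above, whose part was not tested. Between the sexes Nox4, Hao1 and Maob were called in both genotypes, against 7.44% of all genes in KO and 5.61% in WT livers. Nox4, an NADPH oxidase that makes hydrogen peroxide, averaged 14.9 ± 2.05 CPM in Male KO and 1.11 ± 0.729 CPM in Female KO livers, and 18.0 ± 2.32 CPM in Male WT and 1.55 ± 0.396 CPM in Female WT livers. Of 18 genes of heme and iron handling, 0 were called by genotype in either sex or with the sexes averaged. At an unadjusted p under 0.05 there were 3 in males, 2 in females and 4 over both, against 13.1%, 8.84% and 15.6% of all genes. Alas2, Alas1, Hamp2 and Slc40a1 were called between the sexes in at least 1 genotype, against the same 7.44% and 5.61% of all genes.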

How the data were processed

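The deposited table gives an expected count and a CPM value per gene and library. Per the submitters' processing notes, the authors' tools were STAR 2.7.11, featureCounts and Subread 2.1.1, SAMtools 1.22.1, fastp 0.24.0, and for quality reports MultiQC 1.32 and FastQC 0.12.1, on the build mm39; order and settings are not given in the sources used here. The expected counts deposited by the authors need not be whole, and genes with a fractional count hold 33.7% to 55.0% of a library's counts, so reads were shared between genes; they were rounded for the tests. The CPM values deposited by the authors are scaled to a fixed library total, of which the table's sums fall 0.575% to 1.14% short. A 3′ count is not a per-length level, so levels are not compared between genes. No gene name is given for 11373 IDs.

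Counts were tested with edgeR 4.0.16 in R 4.3.3: quasi-likelihood test, TMM scaling, filterByExpr, all 23 libraries in 1 fit, 6 contrasts, Benjamini-Hochberg adjustment over 11370 genes, called at an adjusted p under 0.05. Tests on simulated data used 200 changed genes. DESeq2 1.42.0, limma 3.58.1, other scalings, filters, fits of only the groups compared and fits without each library are alternatives. Tables were made with Python 3.11.15 and pandas 2.3.3. Groups and replicate numbers come from the sample titles, which the labels call biological replicates. No pair of libraries of a group agreed within sampling noise (chi-square per degree of freedom 3.05 to 37.5 over 55 pairs). The median library held 4658677 counts. Levels are deposited CPM, with SD between libraries, and folds are those of edgeR's fit. A prior count of 2 entered the log2 CPM used to correlate libraries, not the folds. Chromosomes come from GENCODE M21 and sequences from RefSeq, both on GRCm38, which is not the build of the counts, so no coordinate links them.

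The members and lists were chosen with earlier results of these data known. Values by library are given for Nfe2l2 and Keap1, for each member called in any contrast, and in each role for the member with the smallest unadjusted p by genotype; called genes of other lists are named, up to 4 a list and contrast. Further members were named to account for the rest.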

Additional observations from a re-analysis of the deposited data

Results flagged for a closer look

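Within groups of 5 or 6 libraries, 15 of 136 combinations of a tested gene and a group held 1 library far from the others. For independent values about 1 in 20 would be flagged, but these combinations share libraries and several flags fall in the same library. The share over all genes is not given here, so the 15 are not read as an excess. High values in KO libraries were Nqo1 in Male KO 4 (5.34 CPM, against at most 2.58 in the other 5), Cbr1 in Male KO 5 (65.2 CPM, against at most 48.6), Osgin1 in Female KO 4 (263 CPM, against at most 95.2), Gpx1 in Female KO 4 (6550 CPM, against at most 4980) and Ftl1 in Female KO 2 (1800 CPM, against at most 1420). Low values were all in Female KO 3, with Fth1 at 2040 CPM (the others at least 2850), Prdx5 at 288 CPM (at least 369) and Prdx6 at 491 CPM (at least 681), except Cat in Female WT 5, at 1500 CPM (at least 1910). Male WT 2 was high in Txn1 (120 CPM, against at most 98.4), Gpx1 (4920 CPM, against at most 3930), Prdx1 (1530 CPM, against at most 1240) and Prdx4 (172 CPM, against at most 146). The others were Txnrd1 in Male WT 1 (78.6 CPM, against at most 67.6) and Txn2 in Female WT 4 (397 CPM, against at most 349). The high Nqo1 value in Male KO 4 brings that library next to the lowest female one, and the Nqo1 call in KO livers holds without it.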

How the results depend on the processing

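The counts of 0 genes called by genotype held under the alternatives run, except that limma-voom with sample weights called 1 gene in males (Gpx1) and 1 with the sexes averaged (Ephx1), and that 1 gene (Ephx1) was called with the sexes averaged without the 4 libraries of scaling factor under 0.9. Of all 11370 genes, sample weights called 685 in males and 628 with the sexes averaged, against 15 and 49 in the main fit. Without the 4 libraries, 35 of 11834 genes were called with the sexes averaged. Male against female in KO livers gave 4 genes, but 11 with sample weights, 2 with only the groups compared, and 4 to 11 when 1 library was left out (11 without Female KO 4, 10 without Male KO 2, 8 without Male KO 1). Of all genes in KO livers, the main fit called 846 of 11370 and sample weights 2093 of 11370. Only the groups compared gave 398 of 10406. Without Female KO 4, Male KO 2 and Male KO 1 in turn it was 1577 of 11364, 1693 of 11234 and 1225 of 11295. In WT livers male against female gave 3 genes, but 6 with DESeq2, 6 with sample weights, 7 with only the groups compared, 6 without the libraries of low factor, and 2 to 6 when 1 library was left out (6 without Female KO 4, 5 without Female KO 3, 5 without Male KO 2, 2 without Female WT 5). Of all 11370 genes in WT livers, the main fit called 638, DESeq2 719 and sample weights 1251. Only the groups compared gave 1121 of 11001, and without the libraries of low factor it was 881 of 11834. Without Female KO 4, Female KO 3, Male KO 2 and Female WT 5 in turn it was 692 of 11364, 659 of 11273, 710 of 11234 and 566 of 11479. The fit with only 2 groups has fewer libraries for its spread, and its count fell in KO and rose in WT livers. The cause of all these shifts was not tested. Leaving out the libraries of low factor and adding Cbr1b were chosen after seeing the data. A fit with the replicate number as a replicate block gave 0 genes by genotype, 4 in KO and 3 in WT livers. Correlations of deviations from the group means, between libraries of the same number, ran from -0.362 to 0.297, with 10 of 22 over 0.1. These values do not decide whether the numbers pair the libraries. Over single named genes, 2705 values under alternatives kept their side of the threshold, 19 moved by over 1 SE, 47 became called and 5 lost the call. No value called in either setting changed sign; 69 uncalled ones did, 9 of them without the libraries of low factor. Of the tested members, Nqo1, G6pdx and Hmox1 had the fewest counts.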

Other observations

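In Male KO against Male WT livers, 7 of the 23 further redox genes had an unadjusted p under 0.05, and all 7 were positive, where 7.92% of all genes were: Gpx3 (log2 fold change 0.80), Selenop (0.53), Selenom (0.52), Selenof (0.50), Selenok (0.39), Selenot (0.29) and Selenow (0.26). None was called by edgeR, with the smallest adjusted p at 0.173 for Gpx3. They were singled out after their values were seen, and the part of the libraries of low scaling factor in these values was not tested.

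Nr1d1, a transcriptional repressor of the circadian clock, was also called for the replicate number term that was called for Gclc (edgeR F test, adjusted p = 0.00642). Both tests were added after values were seen, and a cause was not tested.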
